A study of Homo sapiens with 4 samples.

Results

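The genes described here are 38 genes of hypoxia and glycolysis, covering glucose uptake and lactate export, the glycolytic enzymes and their regulators, the oxygen-sensing machinery and a set of established targets of the hypoxia-inducible factors (HIF). They were chosen by gene symbol from pathway knowledge, and all 38 were found among the 26484 rows of the deposited table. All 38 also passed a filter of at least 10 normalized counts in at least 2 libraries, which left 15431 genes for testing. EGLN3 passed it only through the knockout libraries. The series compares A375, a human melanoma cell line, without and with p53. CRISPR-Cas9 had been used to remove p53 from 2 libraries' cells, numbered 2 and 8 in the deposited table, and 2 libraries, numbered 1 and 2, came from the parental cells, in which p53 is wild type. All cells were grown in DMEM, and poly(A)-selected, strand-specific libraries were sequenced. The labels do not tell independent cultures or clones from repeat libraries, and p-values therefore reflect the scatter among these 4 libraries alone, which may be technical. Edited cells with intact p53 were not part of the comparison, so loss of p53 and the editing or selection of the cells cannot be told apart.

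Glycolysis splits glucose into pyruvate, which lactate dehydrogenase can turn into lactate for export. HIF consists of an oxygen-regulated alpha subunit (HIF1A, or EPAS1, also called HIF-2 alpha) and the constant partner ARNT. In the presence of oxygen, prolyl hydroxylases of the EGLN family mark the alpha subunit, and the VHL ubiquitin ligase destroys it. When oxygen is short HIF accumulates, binds a short DNA core and raises glucose transporters, glycolytic enzymes, angiogenic factors and the EGLN enzymes themselves. The pathway is commonly active in melanoma, and p53 is known as a restraint on glucose uptake and glycolysis in several cell types.

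The DNA core bound by HIF is ACGTG or GCGTG. RefSeq promoter windows (build GRCh38.p14, 250 bases before to 50 bases after the start of the gene) matched 33 of the 38 genes; those of SLC2A3, VEGFA, NDRG1, BNIP3L and VHL were not matched. On either strand, ACGTG occurred in 14 of the 33 windows (42.4%), against 23.6% of the 16198 windows of genes in the table and 26.3% of the 11030 windows of genes that passed the filter. GCGTG occurred in 16 (48.5%), against 42.9% and 49.8%. The palindrome CACGTG holds ACGTG on both strands, and the motifs were searched separately, with overlaps allowed. The upstream stretches below belong to genes whose values carry the results that follow, 3 that lay above the parental level in both knockout libraries (LDHA, EGLN1, P4HA1), 3 that set the parental libraries apart (CA9, ALDOC, BNIP3) and 1 on which the knockout libraries disagreed (ANKRD37). Each runs 5′ to 3′ on the strand of its gene, and capitals mark ACGTG, its reverse complement CACGT, or both where they overlap.
LDHA (chr11:18394353-18394519, plus strand): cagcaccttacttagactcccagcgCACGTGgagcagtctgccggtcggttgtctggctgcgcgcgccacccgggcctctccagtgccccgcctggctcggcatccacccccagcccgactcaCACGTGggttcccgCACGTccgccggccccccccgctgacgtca
EGLN1 (chr1:231422288-231422325, minus strand): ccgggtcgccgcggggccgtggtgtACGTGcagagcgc
P4HA1 (chr10:73096923-73096977, minus strand): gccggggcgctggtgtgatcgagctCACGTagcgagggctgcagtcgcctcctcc
CA9 (chr9:35673885-35673927, plus strand): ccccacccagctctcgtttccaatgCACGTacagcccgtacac
ALDOC (chr17:28576896-28577145, minus strand): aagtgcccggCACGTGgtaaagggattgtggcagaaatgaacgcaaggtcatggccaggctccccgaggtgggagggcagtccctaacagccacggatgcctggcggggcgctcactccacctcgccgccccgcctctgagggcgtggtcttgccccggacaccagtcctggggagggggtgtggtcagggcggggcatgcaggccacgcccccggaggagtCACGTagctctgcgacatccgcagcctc
BNIP3 (chr10:131982027-131982082, minus strand): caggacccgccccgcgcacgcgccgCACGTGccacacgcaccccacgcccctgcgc
ANKRD37 (chr4:185396654-185396727, plus strand): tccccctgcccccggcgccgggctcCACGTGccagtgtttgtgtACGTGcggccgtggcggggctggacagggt
CA9 carries 1 such core 18 bases upstream of its RefSeq start and EGLN1 carries 1 at 13 bases upstream, while LDHA carries 3 between 185 and 73 bases upstream. A match is a stretch of letters and shows no binding.

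The libraries held 30334054 and 32160978 reads for knockout libraries 2 and 8, and 29230554 and 36331894 for parental libraries 1 and 2. The knockout libraries differed from each other more than the parental ones did (chi-square per degree of freedom 65.3 for the knockout pair and 5.85 for the parental pair). Among 11 melanoma markers 7 passed the filter, with SOX10 between 25662 and 30033 normalized counts and MLANA and TYR at 0 in all 4 libraries. Of those 7, 2 lay above and 4 below in both knockout libraries (22.8% and 23.7% of all genes tested). The lower ones included MITF, the melanocyte regulator, at 849 and 1050 against 1645 and 1562 (DESeq2 adjusted p = 0.00272). It was the only 1 of the 7 that DESeq2 called lower, against 1.22% of the genes to which DESeq2 gave an adjusted p. Of 7 fibroblast markers 5 passed, and the whole list summed to 2336 and 1384 in knockout libraries 2 and 8 against 1353 and 1299 in the parental libraries. Of the 5, 2 lay above and 0 below in both knockout libraries (22.8% and 23.7% of all genes tested). The 2 above were PDGFRA (1033 and 368 against 355 and 284) and DCN (30.5 and 27.3 against 11.0 and 14.9). COL1A1, PDGFRB and LUM overlapped the parental range or straddled it, LUM at 31.6 and 165 against 92.1 and 101. The defining collagens COL1A2 and COL3A1 were at or below 3.51 in all 4 libraries. Of 7 epithelial markers 3 passed, with CDH1 at 0 in all 4 libraries. The whole list summed to 7088 and 6804 in the knockout libraries and 7742 and 7575 in the parental ones. Most of that came from KRT18, at 6126 and 5569 against 6548 and 6494, and KRT8, at 926 and 1208 against 1147 and 1014. Of the 3, 0 lay above and 2 below in both knockout libraries (22.8% and 23.7% of all genes tested). Of 8 blood and endothelial markers 3 passed, with HBB at 0, and the list's sums of 2419 and 1051 in the knockout libraries and 1765 and 1512 in the parental ones came mostly from CD68, at 2343 and 968 against 1704 and 1448. Of these 3, 2 lay above and 0 below in both knockout libraries (22.8% and 23.7% of all genes tested). The 2 above were PECAM1 (17.9 and 19.5 against 7.67 and 6.14) and VWF (57.9 and 58.6 against 48.2 and 56.1). The part of such cells in the results below was not tested.

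No gene of the pathway passed the test with all 4 libraries. SLC2A1 (the glucose transporter GLUT1), LDHA (lactate dehydrogenase A) and EGLN1 (the main oxygen sensor, PHD2) lay above both parental libraries in both knockout libraries and had the smallest limma p-values. Limma called 0 of the 38 genes at an adjusted p of 0.05. The edgeR quasi-likelihood test, DESeq2 and limma-voom, run on whole reads recovered from the table, called 0 as well. Over all genes tested limma, edgeR and limma-voom called 0% in either direction, and DESeq2 called 1.21% higher and 1.22% lower of the 16330 genes to which it gave an adjusted p. Without adjustment, limma gave a p under 0.05 to 3 of the 38 genes in the higher and 0 in the lower direction, against 5.85% and 6.16% of all genes tested. By edgeR these were 3 and 0, against 6.13% and 5.97%. By DESeq2 they were 4 and 0, with P4HA2 added, against 4.17% and 3.71% of the 20673 genes with a DESeq2 p, and by limma-voom 2 and 0, against 5.66% and 6.2%. The knockout libraries both lay above both parental ones in 15 of the 38 genes (39.5%) and both below in 6 (15.8%), against backgrounds of 22.8% and 23.7% of all genes tested. Without EGLN3 these were 14 and 6 of 37 genes. The same backgrounds of 22.8% above and 23.7% below apply to the counts by role that follow. The median log2 fold change, here the difference of the group means of log2(normalized count + 1), knockout minus parental, was 0.09 over the 38 genes and -0.0057 over all genes tested. It was 0.19 without parental library 1 and -0.02 without parental library 2, so the direction of the median rests on which parental library is used. In bulk RNA, fewer cells that express a gene and less of its RNA per cell cannot be told apart.

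**Figure D1:**
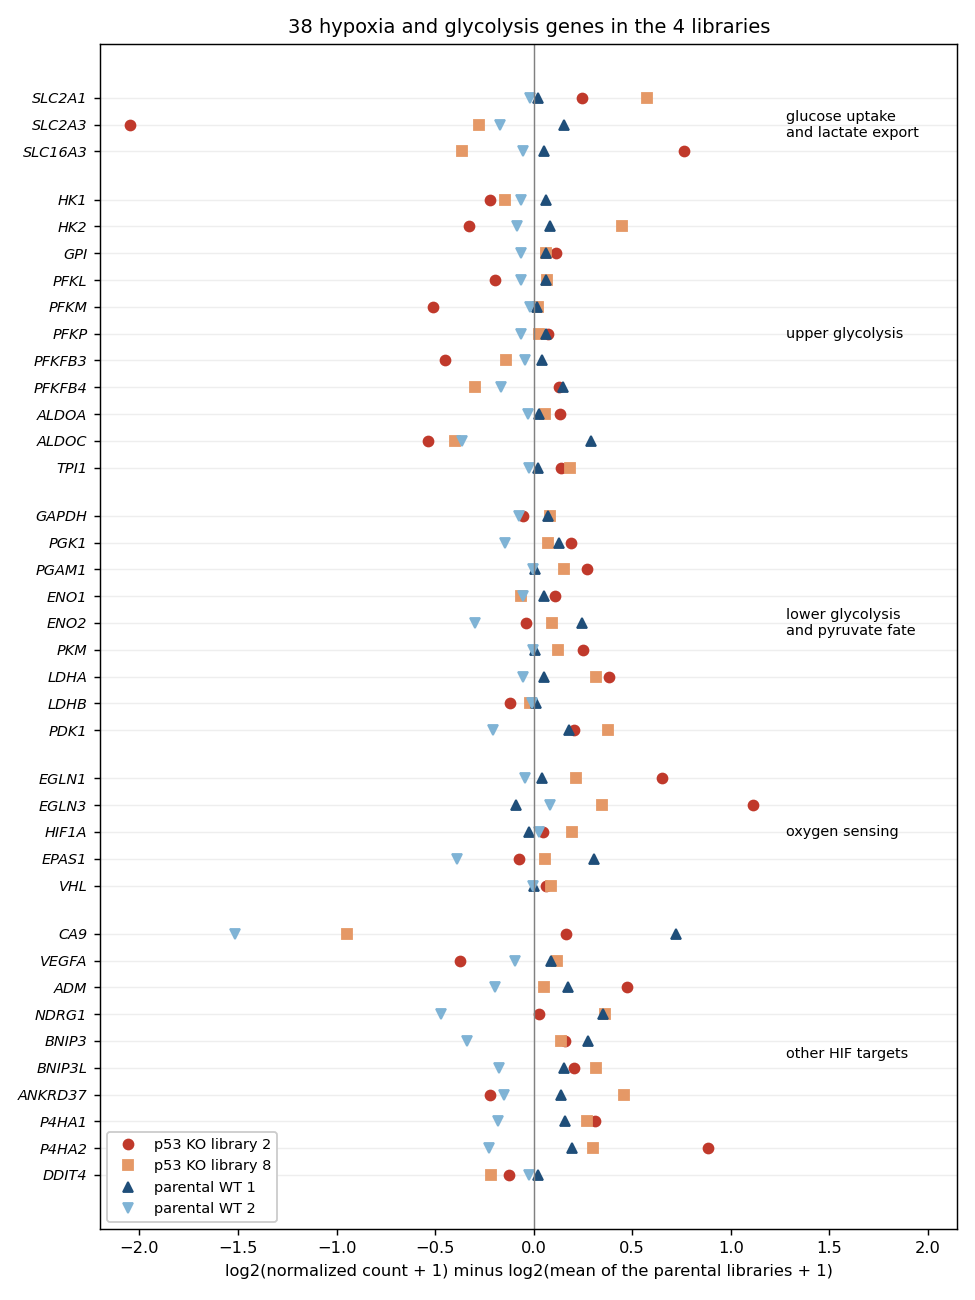
Each row is 1 gene and each point 1 library, placed by its log2 distance from the mean of the parental libraries (circles and squares, p53 knockout libraries 2 and 8; triangles, parental libraries 1 and 2). Most points sit close to 0, SLC2A3 in knockout library 2 lies at -2.05, and CA9 spreads widely in both groups.

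Glucose transport showed opposite values for its 2 transporters. SLC2A1 (ENSG00000117394.21, chromosome 1, 42925375 to 42959176 on the minus strand, GENCODE 29 on GRCh38) had 4802 and 6035 normalized counts in knockout libraries 2 and 8, against 4108 and 3998 in parental libraries 1 and 2. The groups did not overlap, with a mean of 5418 ± 872 in the knockout and 4053 ± 77.97 in the parental libraries (SD, n = 2 each) and a log2 fold change of 0.41 ± 0.13 (SE; limma adjusted p = 0.368, DESeq2 adjusted p = 0.2305). SLC2A3 (GLUT3, a high-affinity glucose transporter; chromosome 12, 7919230 to 7936275, minus strand) had 587 and 2010 in knockout libraries 2 and 8, against 2708 and 2160 in the parental libraries. Its low value belonged to knockout library 2, whereas knockout library 8 was close to parental library 2, and the log2 fold change was -1.15 ± 0.60 (limma adjusted p = 0.520). It was -0.27 without knockout library 2 and -2.04 without knockout library 8. SLC16A3 (MCT4, which exports lactate) had 913 and 419, against 558 and 519. The knockout libraries lay on either side of the parental pair, with a log2 fold change of 0.20 ± 0.39 (limma adjusted p = 0.852).

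**Figure D2:**
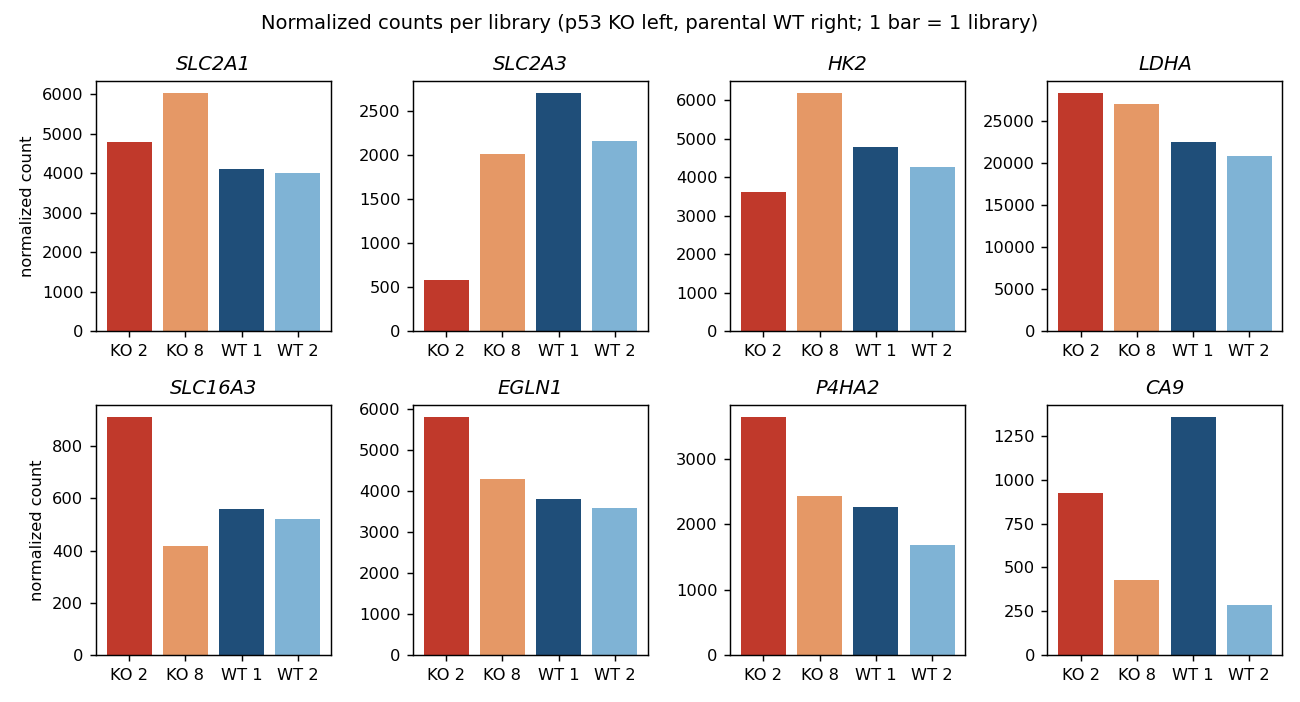
Normalized counts of 8 genes (y axis, from 0), 1 bar per library, with p53 knockout libraries 2 and 8 on the left and parental libraries 1 and 2 on the right of each panel. SLC2A1, LDHA, EGLN1 and P4HA2 have both knockout bars above both parental bars, HK2 and SLC16A3 have 1 on either side, and CA9 differs most between the parental libraries.

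In upper glycolysis, from glucose phosphorylation to the triose phosphates, 3 of 11 genes lay above and 3 below the parental libraries in both knockout libraries (backgrounds 22.8% and 23.7%), with a median log2 fold change of -0.06. HK2, the inducible hexokinase, had 3620 and 6196 normalized counts in knockout libraries 2 and 8, against 4801 and 4280 in parental libraries 1 and 2. Library 2 was thus below and library 8 above both parental libraries (log2 fold change 0.06 ± 0.27, limma adjusted p = 0.939). HK1, the housekeeping hexokinase, lay below in both, at 7825 and 8255 against 9525 and 8739. PFKM, the muscle-type subunit of phosphofructokinase, had 3467 and 5019 in knockout libraries 2 and 8, against 5004 and 4883. Only knockout library 2 was low (log2 fold change -0.24 ± 0.19, limma adjusted p = 0.644). PFKFB3, which makes the phosphofructokinase activator fructose 2,6-bisphosphate, lay below in both at 6175 and 7643 against 8688 and 8181, and ALDOC, the brain-type aldolase, at 2021 and 2222 against 3586 and 2280. For ALDOC the gap within the parental pair was wider than the distance of the knockout libraries to parental library 2. ALDOA (the main aldolase), TPI1 (triose phosphate isomerase) and GPI (glucose-6-phosphate isomerase) lay above in both knockout libraries, by log2 fold changes of 0.09, 0.16 and 0.09. PFKL, PFKP and PFKFB4 overlapped the parental range or lay on either side of it, with log2 fold changes between -0.07 and 0.05.

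In lower glycolysis and the fate of pyruvate, 4 of 9 genes lay above and 1 below in both knockout libraries (backgrounds 22.8% and 23.7%), and the median log2 fold change was 0.14. LDHA (ENSG00000134333.13, chromosome 11, 18394388 to 18408425, plus strand) had 28326 and 27016 normalized counts in knockout libraries 2 and 8, against 22516 and 20887 in the parental libraries. Both knockout values exceeded both parental ones, with means of 27671 ± 926 and 21701 ± 1152 (SD, n = 2 each) and a log2 fold change of 0.35 ± 0.10 (limma adjusted p = 0.324, DESeq2 adjusted p = 0.101, the smallest of the 38 genes). LDHB, the subunit that favours conversion of lactate to pyruvate, lay slightly below in both, at 23899 and 25636 against 26116 and 25768. PKM, pyruvate kinase, had 57143 and 52281 against 48232 and 47904, and PGAM1, phosphoglycerate mutase, 6572 and 6074 against 5480 and 5435. Both had values above the parental pair in either knockout library, with log2 fold changes of 0.19 ± 0.12 and 0.21 ± 0.08 (limma adjusted p = 0.573 and 0.419). PDK1, a kinase that inhibits pyruvate dehydrogenase, had 1590 and 1791 against 1562 and 1194. GAPDH, the enzyme widely used as a reference gene, had 74881 and 82320 against 81705 and 73795, so the groups overlapped (log2 fold change 0.02 ± 0.14, limma adjusted p = 0.972). PGK1, ENO1 and ENO2 also overlapped or straddled the parental range, with log2 fold changes between 0.02 and 0.14.

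Among the oxygen-sensing genes 4 of 5 lay above in both knockout libraries and 0 below (backgrounds 22.8% and 23.7%), or 3 of 4 and 0 without EGLN3, with a median log2 fold change of 0.12. EGLN1 (ENSG00000135766.8, chromosome 1, 231363751 to 231425044, minus strand) had 5813 and 4283 normalized counts in knockout libraries 2 and 8, against 3812 and 3581 in parental libraries 1 and 2. Knockout library 2 stood higher than library 8, and the log2 fold change was 0.43 ± 0.16 (limma adjusted p = 0.416, DESeq2 adjusted p = 0.312). Without knockout library 2 it was 0.21, and without knockout library 8 it was 0.65. EGLN3, a prolyl hydroxylase that HIF induces strongly in many cells, was close to the detection limit, at 18.9 and 10.7 against 7.67 and 8.77, from 18 and 11 reads against 7 and 10. Its log2 fold change of 0.73 ± 0.44 (limma adjusted p = 0.560) rests on these few reads. HIF1A had 10358 and 11462 against 9836 and 10194, and VHL 4575 and 4664 against 4393 and 4379, log2 fold changes of 0.12 ± 0.09 and 0.07 ± 0.07 (limma adjusted p = 0.633 and 0.701). EPAS1 was low and overlapped, at 155 and 170 against 202 and 125.

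Of the 10 other HIF targets, 3 lay above and 1 below in both knockout libraries (backgrounds 22.8% and 23.7%). P4HA2, a collagen prolyl hydroxylase subunit, had 3646 and 2434 normalized counts in knockout libraries 2 and 8, against 2260 and 1685 in the parental libraries. The values did not overlap, but knockout library 8 was close to parental library 1, and the log2 fold change was 0.61 ± 0.25 (limma adjusted p = 0.438). It was 0.32 without knockout library 2, 0.90 without knockout library 8, 0.82 without parental library 1 and 0.40 without parental library 2. Its paralog P4HA1 had 3326 and 3238 against 2998 and 2367, and BNIP3L, a mitophagy receptor, 3168 and 3423 against 3062 and 2433. ANKRD37, a small ankyrin-repeat HIF target, had 243 and 391 against 312 and 255, with knockout library 2 below and library 8 above both parental ones (log2 fold change 0.13 ± 0.28, limma adjusted p = 0.875). VEGFA, the angiogenic growth factor, did the same at 1639 and 2305 against 2255 and 1991. DDIT4 (REDD1), an mTORC1 inhibitor that p53 also induces, lay below in both at 3082 and 2888 against 3414 and 3301, a log2 fold change of -0.17 ± 0.08 (limma adjusted p = 0.485). CA9, ADM, NDRG1 and BNIP3 overlapped between the groups.

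Several classical HIF targets differed more between the parental libraries than between the groups. CA9, carbonic anhydrase IX, had 924 and 427 normalized counts in knockout libraries 2 and 8, against 1361 and 288 in parental libraries 1 and 2. Parental library 1 was 4.73 times parental library 2, and the knockout libraries lay between them (log2 fold change 0.0048 ± 0.83, limma adjusted p = 0.998). NDRG1, a differentiation and stress gene, had 6042 and 7626 against 7580 and 4280. BNIP3, a mitophagy receptor, had 4898 and 4844 against 5313 and 3473, and ENO2, the neuronal enolase, 3435 and 3775 against 4195 and 2873. For NDRG1, BNIP3 and ENO2 the lowest of the 4 values was that of parental library 2.

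Parental library 2 was below parental library 1 in 36 of the 38 genes, as it was in 50% of all genes tested, with EGLN3 and HIF1A as the exceptions. It was lower by at least 0.25 log2 units in 15 of the 38 (39.5%), against a background of 10.5%, and higher by as much in 0, against 6.12%. By role, those 15 included 8 of the 10 other HIF targets, 2 of the 11 upper glycolytic genes, 3 of the 9 lower ones, 1 of the 5 oxygen-sensing genes (EPAS1) and 1 of the 3 transporters (SLC2A3). The medians of parental library 2 minus parental library 1 were -0.35 for the other HIF targets, -0.12 for upper and -0.11 for lower glycolysis, and 1.0e-05 for all genes tested. In 20 of the 38 genes (52.6%) the gap between the parental libraries exceeded the size of the log2 fold change between the groups, as it did in 34.2% of all genes tested. Parental library 2 was also the more deeply sequenced, and whether depth or culture bears on the gap was not tested.

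**Figure D3:**
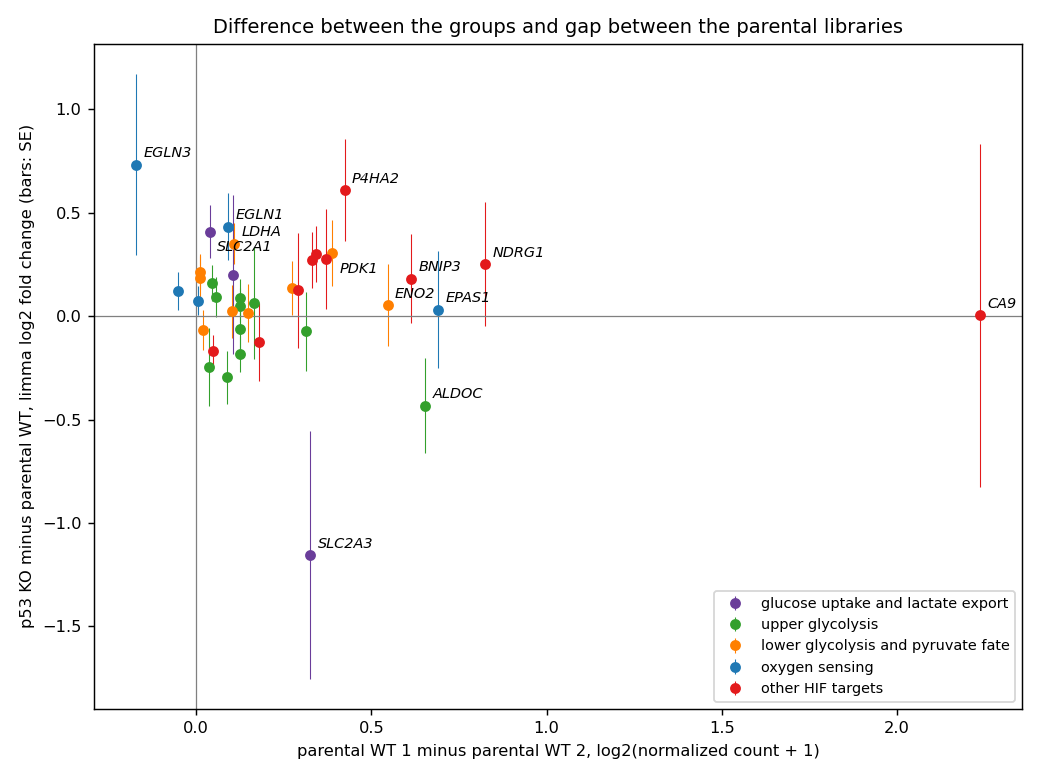
Each point is 1 of the 38 genes, coloured by role, with the log2 gap between parental libraries 1 and 2 on the x axis and the limma log2 fold change of p53 knockout over parental libraries on the y axis (bars, SE). Nearly all points lie to the right of 0, and CA9, NDRG1, EPAS1, ALDOC and BNIP3 lie farthest right, with gaps of 2.24, 0.82, 0.69, 0.65 and 0.61.

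The genes were also described by whether their window holds ACGTG. Genes without ACGTG can still hold GCGTG, the other form of the core, and 24 of the 33 windows held either. The 14 genes with ACGTG had a median log2 fold change of 0.09, with 5 above and 2 below in both knockout libraries. The 19 without ACGTG had 0.12, with 8 above and 3 below (backgrounds 22.8% and 23.7%). The median gap, parental library 1 minus parental library 2, was 0.22 with ACGTG and 0.10 without ACGTG. In these groups 7 of 14 and 5 of 19 genes had a gap of at least 0.25 (background 10.5%). These are descriptions of small sets and were not tested.

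The knockout libraries parted in some genes without a common direction. Library 8 was above library 2 in 20 of the 38 genes, against 50.4% of all genes tested, and the libraries were at least 0.5 log2 units apart in 8 of the 38 (21.1%), against 23.1%. Set against the parental pair alone, each knockout library gave calls by limma, under the assumption that the lone library would vary as the parental pair did. Knockout library 8, tested without library 2, had 6 genes called higher (SLC2A1, HK2, LDHA, PDK1, BNIP3L and ANKRD37; background 8.48%) and 1 lower (SLC16A3; background 10.3%). Knockout library 2, tested without library 8, had 7 higher (EGLN1, P4HA2, SLC16A3, LDHA, PGAM1, SLC2A1 and P4HA1; background 15.7%) and 7 lower (SLC2A3, PFKM, PFKFB3, VEGFA, HK2, ALDOC and HK1; background 16.9%). Both fits share the 2 parental libraries, so they are not independent of each other. LDHA had a log2 fold change of 0.32 without knockout library 2 and 0.39 without knockout library 8, and SLC2A1 one of 0.57 and 0.24. The signs differed between the knockout libraries for HK2 and SLC16A3, and for other genes as well, PFKM, VEGFA and ANKRD37 among them. HK2 stood at 0.45 in library 8 and -0.32 in library 2, and SLC16A3 at -0.36 in library 8 and 0.76 in library 2. With parental library 1 left out, the log2 fold change was 0.41 for LDHA and 0.43 for SLC2A1. With parental library 2 left out instead, it was 0.30 for LDHA and 0.39 for SLC2A1.

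Levels of different genes were set side by side only per exon length, as recovered reads per kilobase of merged exons scaled to the same total in each library (TPM) over the 23824 genes with a GENCODE 29 length. The 38 genes made up 1.42% and 1.45% of this level in knockout libraries 2 and 8, against 1.42% and 1.30% in parental libraries 1 and 2. GAPDH had the highest mean level of all genes with a length, at 3590 and 3977 TPM in the knockout libraries and 3891 and 3512 TPM in the parental ones. ENO1, LDHB, TPI1, ALDOA and PKM followed among the 38 genes, between 793 TPM for PKM in parental library 2 and 1641 TPM for ENO1 in knockout library 2. Merged exons cover all annotated transcripts of a gene, so the order of genes depends on annotated length as well as on reads. SLC16A3 was between 6.71 and 14.5 TPM, EPAS1 between 2.42 and 3.92 TPM and EGLN3 between 0.148 and 0.368 TPM. HIF1A, between 271 and 320.5 TPM, was far above EPAS1, and EGLN1, between 69.9 and 114 TPM, was far above EGLN3. Members of these families outside the 38 genes were not compared.

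**Figure D4:**
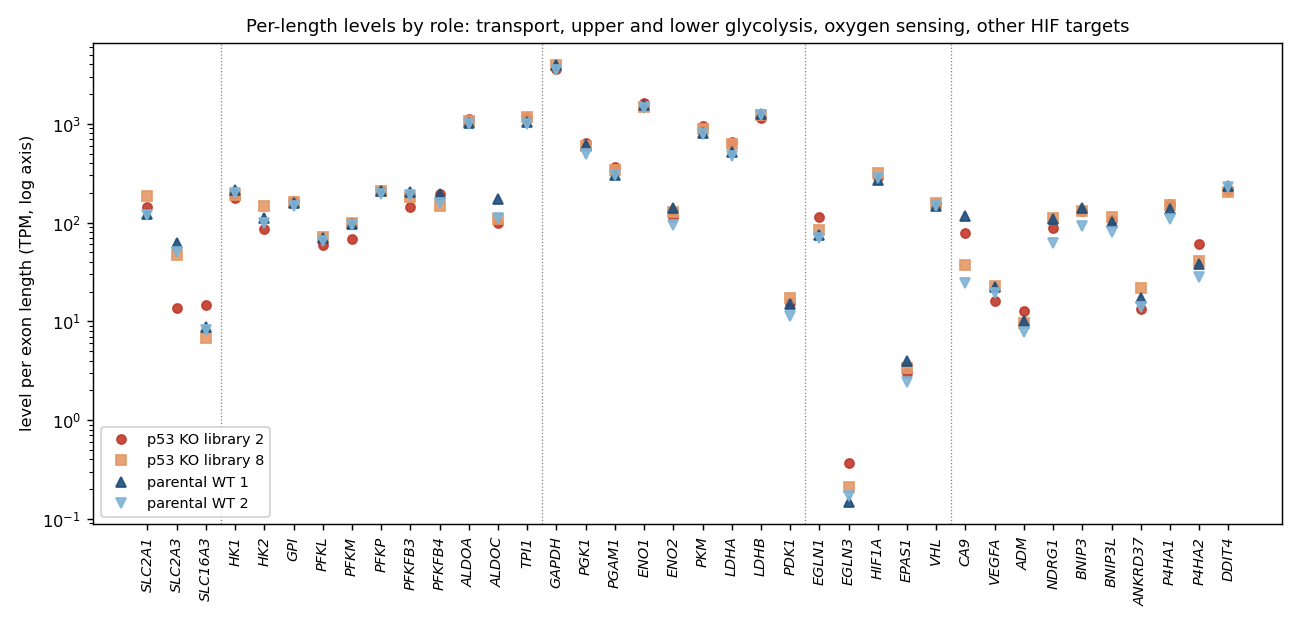
Level per exon length of the 38 genes (TPM, log axis) in p53 knockout libraries 2 and 8 and parental libraries 1 and 2, ordered by role with dotted lines between roles. Enzymes of lower glycolysis reach 3977 TPM for GAPDH, and EGLN3 lies below 1 TPM in all 4 libraries.

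The makeup of some isoform families differed between libraries. GLUT1 (SLC2A1) supplied 91.4% and 79.7% of the summed level of SLC2A1 and SLC2A3 in knockout libraries 2 and 8, against 66.4% and 70.7% in parental libraries 1 and 2. LDHA supplied 36.3% and 33.6% of the summed LDHA and LDHB level in the knockout libraries, against 29.3% and 28.0% in the parental ones. The size of the LDHA share depends on merged exon lengths of 6210 bases for LDHA and 2983 for LDHB. In reads, LDHA exceeded LDHB in knockout libraries 2 and 8 (26916 and 27662 against 22709 and 26249). It was below LDHB in parental libraries 1 and 2 (20536 and 23812 against 23819 and 29377). Both shares were above the parental range in each knockout library, and with 2 libraries a group an exact permutation test cannot give a p below 33.3%. The HK2 share of both hexokinases was 32.5% and 43.8%, against 34.4% and 33.7%, with only knockout library 8 apart. PFKM supplied 19.9% and 26.1% of the phosphofructokinase level, against 25.7% and 26.9%, with only knockout library 2 apart. ENO1 made up between 91.9% and 93.9% of the enolase level in all 4 libraries.

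**Figure D5:**
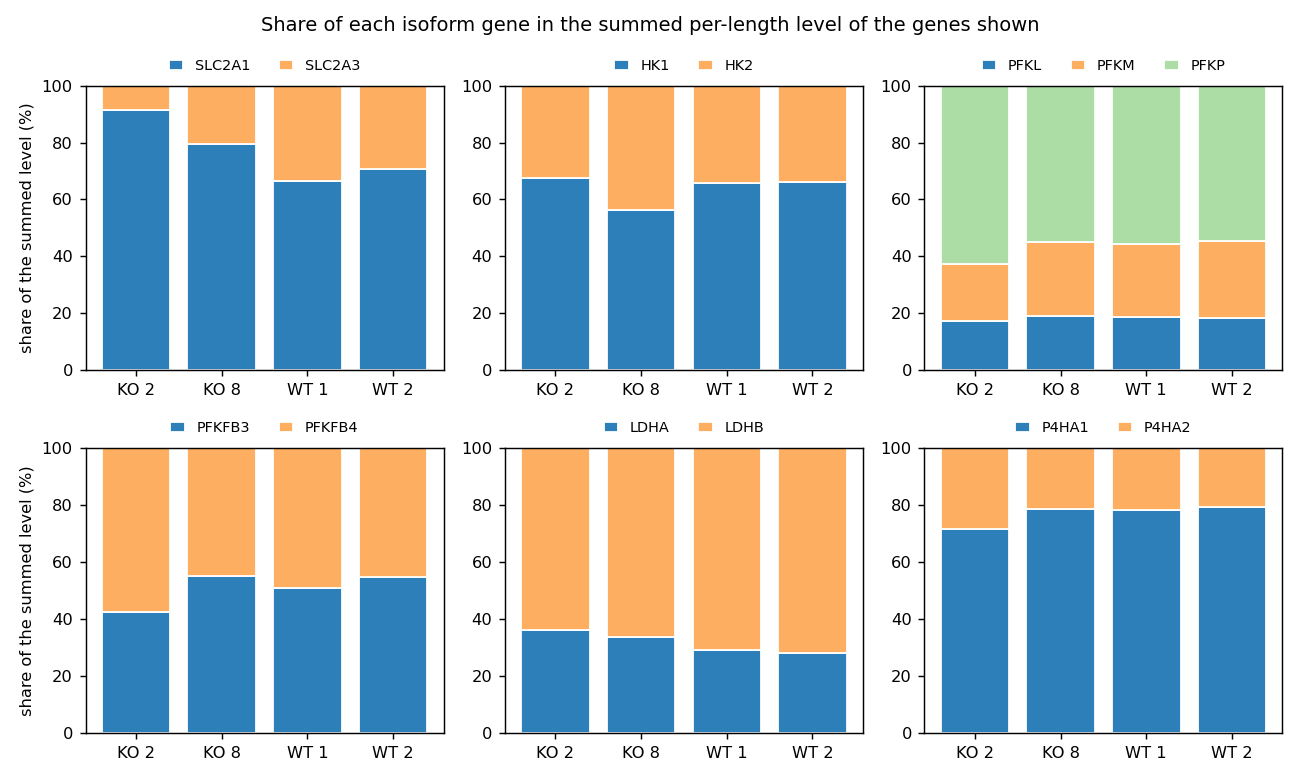
Stacked bars give the share of each gene in the summed per-length level of its family (y axis, %), 1 bar per library, p53 knockout libraries 2 and 8 left of parental libraries 1 and 2. The SLC2A1 share is 91.4% and 79.7% in the knockout libraries and the LDHA share 36.3% and 33.6%, both above the parental bars.

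Other genes of the pathway, from lists drawn up by role, are given for context. Of 30 further HIF targets 27 passed the filter, 7 lay above and 1 below in both knockout libraries, limma and edgeR called 0 (unadjusted p under 0.05 in 4 higher and 0 lower genes by either), and DESeq2 called 3 higher and 0 lower. For this and the next 3 lists, the shares over all genes are 22.8% above and 23.7% below, 5.85% higher and 6.16% lower at an unadjusted limma p under 0.05 (6.13% and 5.97% by edgeR), and 1.21% higher and 1.22% lower by DESeq2 call. Among those were HMOX1 (heme oxygenase, also a target of NRF2), at 388 and 360 against 171 and 185 (DESeq2 adjusted p = 9.27e-04), and TFRC (transferrin receptor), at 10299 and 8118 against 3878 and 5342 (DESeq2 adjusted p = 5.64e-04). Parental library 2 was below parental library 1 by at least 0.25 in 14 of these 27 (background 10.5%), among them ANGPTL4, a secreted lipase inhibitor, with 546 and 287 in the knockout against 1342 and 426 in the parental libraries. In 35 further genes of glycolysis, pyruvate and the pentose phosphate branch, of which 26 passed, the same gap appeared in 3. In that list 5 lay above and 7 below, with 0 called by limma, edgeR or DESeq2 (unadjusted p under 0.05 in 1 higher and 3 lower genes by each). Its widest log2 fold changes without overlap were those of PDP1 (a pyruvate dehydrogenase phosphatase, -0.53), PFKFB2 (a PFKFB3 paralog, -0.42), DLAT (a pyruvate dehydrogenase subunit, -0.35) and SLC16A1 (the lactate transporter MCT1, 0.27), with limma adjusted p-values of 0.330, 0.393, 0.393 and 0.445.

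Of 11 further oxygen-sensing genes 9 passed, 4 lay above and 2 below, and limma and edgeR called 0 (unadjusted p under 0.05 in 1 higher and 1 lower gene). DESeq2 called ARNT2, a paralog of the HIF partner ARNT, lower, at 2944 and 4926 in knockout libraries 2 and 8 against 7093 and 6857 in the parental libraries (DESeq2 adjusted p = 0.0469, limma adjusted p = 0.340). ARNT itself had 2177 and 1799 against 2060 and 2067 (limma adjusted p = 0.854). Of 9 genes that link p53 to glucose or energy metabolism 7 passed, 0 lay above and 4 below. Limma and edgeR called 0 of them (unadjusted p under 0.05 in 0 higher and 4 lower genes), and DESeq2 called the stress genes TP53INP1 and SESN1 lower, at 210 and 221 against 441 and 389 and at 288 and 317 against 499 and 486 (DESeq2 adjusted p = 0.00417 and 0.0352). TIGAR, a fructose bisphosphatase through which p53 restrains glycolysis, had 889 and 823 against 841 and 946, and SCO2, a p53-dependent respiratory assembly factor, had 439 and 399 against 429 and 464. Both overlapped, with log2 fold changes of -0.06 and -0.09 (limma adjusted p = 0.848 and 0.799).

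Each of the 38 genes was set beside its 40 nearest genes with a mean of at least 100 normalized counts. The purpose was to show differences shared with neighbouring genes on the chromosome. Only PDK1, on chromosome 2, lay in a neighbourhood whose median log2 ratio to the parental mean passed 0.3, at 0.07 in knockout library 2 and 0.44 in knockout library 8, where PDK1 itself was at 0.38. The part of the neighbourhood in the PDK1 value was not tested. For the other genes the neighbourhood medians were between -0.17 and 0.11, that of EGLN1 being -0.02 in knockout library 2 and -0.17 in knockout library 8. LDHA had neighbourhood medians of 0.09 and 0.01 in knockout libraries 2 and 8, and its own ratios were 0.38 and 0.32.

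Some values carry counting limits. The strand setting of the counting is not stated in the labels or processing notes, and 38.5% of the exon bases of CA9 overlap ARHGEF39 and 35.2% of those of ANKRD37 overlap UFSP2, both on the opposite strand. ARHGEF39 had 800 and 608 against 689 and 744, and UFSP2 1134 and 1291 against 1349 and 1280. On the opposite strand SENP1 also overlaps 8.58% of the exon bases of PFKM, with 1779 and 1689 against 1605 and 1690, and PNMA2 overlaps 7.66% of those of BNIP3L, with 655 and 206 against 95.4 and 77.2. UCN2 overlaps PFKFB4 on the same strand over 4.73% of its exon bases, with 3479 and 2575 against 3704 and 2832. CSNK1D, on the opposite strand, overlaps 5.36% of the exon bases of SLC16A3 and has far higher counts, with 5764 and 6922 against 6369 and 6169. The part of the overlapping genes in these values was not tested. GENCODE 29 annotates 146 pseudogenes named for 15 of the 38 genes, 62 of them for GAPDH and 39 for BNIP3, and 3 of the 146 were rows of the table, so how reads from near-identical copies were assigned is uncertain.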

How the data were processed

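Per the labels' protocols, TRIzol RNA was DNase-treated, poly(A)-selected and made into libraries with the NEBNext Ultra II Directional kit. The deposited values are a normalized signal, made by the authors by scaling the reads of each gene with a library-wide factor. Dividing by the value of 1 read in its library turned 100% of the values whole, to within 0.001, which recovered the reads. STAR, HTSeq, Picard, deepTools and DESeq2, and build hg38, are named per the submitters' processing notes, without version, annotation or strand setting. Positions and exon lengths came from GENCODE 29 (GRCh38), the reference used here. Columns were tied to groups by their names; the knockout columns are numbered 2 and 8, which do not match the labelled replicates, so they were used as members of their group. Main tests used limma-trend (limma 3.58.1) on log2(normalized count + 1), Benjamini-Hochberg adjusted over 15431 genes with at least 10 normalized counts in 2 libraries, threshold 0.05. Fold changes on that scale understate changes of low genes. edgeR 4.0.16, DESeq2 1.42.0 (over all 26484 rows) and limma-voom ran on the recovered reads, where DESeq2 gave no adjusted p to genes its own filter removed. All were run on simulated reads with changes larger than those of the 38 genes and the same spread in both groups. That run does not show what the tools could call in these data. Other alternatives were TMM scaling, RLE factors, no filter, 1 CPM in 2 libraries, leaving out each library and a pseudocount of 0.1. The genes and lists were chosen with earlier results of these data known, and no list was tested as a set. All 38 genes are named, with values per library for those called by a tool, those with a log2 fold change of at least 0.5 without overlap and those whose knockout libraries lay on either side by 0.5 or more. From each further list up to 4 genes were named, the called ones or else the largest changes without overlap. Other genes given in full (CA9 and ANGPTL4 among them), and the printed promoters, were picked after their values were seen. Results for the targeted gene itself and for some genes of the other lists are not reported here.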

Additional observations from a re-analysis of the deposited data

How the results depend on the processing

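No paired analysis was possible because the columns number the knockout libraries 2 and 8, and the labels number them differently. Over all genes, 198 were called higher and 200 lower by DESeq2, against 0 and 0 by limma, edgeR with TMM or RLE factors and limma-voom, and under TMM scaling, both filters and the pseudocount of 0.1. Leaving out 1 library gave 0 to 2421 genes higher and 0 to 2602 lower, and 0 to 7 of the 38 genes higher and 0 to 7 lower, all calls coming from fits with 1 knockout library. The median of the 38 genes ran from -0.015 to 0.19 when 1 library was left out, against 0.09 with all, and from 0.09 to 0.11 under every other setting. With 1 library left out, genes whose remaining knockout libraries lay above all remaining parental ones numbered 15 to 24, 24 without parental library 1. Genes below numbered 6 to 11, 11 without knockout library 8 or parental library 2. Fewer libraries make such a separation easier to reach for any gene, and the shares over all genes were not computed for these sets. The rise in these counts is therefore not a result about the 38 genes. The log2 fold change of CA9 was -0.28 by edgeR with TMM factors, -0.28 with RLE factors and -0.29 by DESeq2, and that of EPAS1 was -0.0035, -1.28e-04 and -0.0036, both just above 0 by limma; the cause was not tested. The other 36 genes kept their sign under the settings that use all libraries and test them. Signs also turned without 1 library, over ranges of -0.32 to 0.45 for HK2, -0.19 to 0.070 for PFKL, -0.51 to 0.022 for PFKM, -0.011 to 0.11 for PFKP, -0.29 to 0.14 for PFKFB4, -0.057 to 0.089 for GAPDH, -0.062 to 0.11 for ENO1, -0.22 to 0.33 for ENO2, -0.36 to 0.76 for SLC16A3, -1.11 to 1.12 for CA9, -0.37 to 0.12 for VEGFA, -0.16 to 0.67 for NDRG1, -0.13 to 0.49 for BNIP3, -0.22 to 0.47 for ANKRD37 and -0.31 to 0.38 for EPAS1. With 2 libraries a group, leaving out 1 could turn a sign. EGLN3 rests on few reads, and the part of depth or of the spread between libraries in the missing calls was not tested.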
